A study of Mus musculus with 32 samples.

Results

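The genes described here are those of the receptor complex through which cells sense bacterial lipopolysaccharide, with the Toll-like receptors and signalling proteins closest to it. They are Tlr4, its co-receptors Cd14 and Ly96, the related receptors Tlr2 and Tlr3, the adaptors Myd88 and Ticam2, the signalling proteins Irak1 and Traf6, and the transcription factor Irf3. The members are 10 gene symbols, and every probe set annotated with 1 of them was taken. This gave 19 probe sets of 9 genes, out of 22626 probe sets and 12393 named genes measured, and Ticam2 had no probe set under its symbol. A probe set is the group of short oligonucleotides on the array that together read 1 transcript or part of it.

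Messenger RNA was measured on expression arrays in the medulla and the midbrain of control mice and of mice deficient in Cckbr, the receptor through which the neuropeptide cholecystokinin acts in most of the brain (KO mice). Mice of each genotype were either sham-operated or given a chronic constriction injury (CCI) of the sciatic nerve, a model of lasting neuropathic pain made by tying the nerve loosely. There were 8 groups of 4 arrays: control sham, control CCI, KO sham and KO CCI mice, each in both regions. The series describes 4 mice for each genotype and operation, each giving both regions, and which medulla and midbrain arrays share a mouse was inferred here from consecutive array numbers. All KO mice, sham-operated ones included, carried the same Cckbr deficiency, and the labels name the other mice only as controls. Strain, age, sex, the kind of mutation and the time between operation and tissue collection are not given in the sources used here.

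Tlr4 is a membrane receptor of microglia, macrophages and other cells. CD14 passes lipopolysaccharide to it, and MD-2, the product of Ly96, sits on its outer face and completes the binding site. The activated receptor signals along a branch that runs through MyD88, IRAK1 and TRAF6 to NF-kappaB and inflammatory cytokines, and along another that runs through the adaptor encoded by Ticam2 to IRF3 and type I interferon. Tlr2 recognises bacterial lipoproteins and also uses MyD88, whereas Tlr3 sits in endosomes, recognises double-stranded RNA and signals to IRF3 without MyD88. In the nervous system Tlr4 has been studied for its part in the glial response to nerve injury and in pain.

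Values are the deposited intensities in linear units, with array medians between 91.0 and 99.9 and some values below 0. The Cckbr probe set 1454770_at separated the genotypes on every array, with 122 to 200 units in control mice and -1.49 to 24.1 in KO mice over both regions. The regions also carried their labelled markers: 5 of 8 midbrain genes were higher in midbrain (the dopamine transporter Slc6a3 averaged 4.78 units in medulla and 577.9 in midbrain), and 9 of 9 Hox genes were lower there. Of the arrays, 3 lay farthest from the rest of their region on the first principal component, namely KO sham medulla 3, KO sham midbrain 2 and KO sham midbrain 4. KO sham medulla 3 had 4.58% of its values at or below 0, the largest share of the 32 arrays. On KO sham midbrain 2 the 3′ signal for Actb exceeded the 5′ signal by 1.60 on the log2 scale, against at most 0.78 elsewhere. By their array numbers, KO sham medulla 3 and KO sham midbrain 4 come from 1 animal, whereas the numbers in their titles differ.

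Tlr4 was higher in KO than in control mice in the medulla, by its probe set 1418163_at. In control sham medulla the 4 arrays read 22.8, 19.8, 17.97 and 22.01 units, and in control CCI medulla 12.2, 20.9, 11.6 and 15.5. In KO sham medulla they read 30.99, 46.2, 32.02 and 38.9, and in KO CCI medulla 26.1, 32.5, 35.1 and 31.6. All 8 KO arrays of the medulla lay above the highest control array. Over the whole array, 0.0221% of probe sets separated every KO from every control array of the medulla in this direction. The group means were 20.7 ± 2.19, 15.0 ± 4.28, 37.03 ± 7.04 and 31.3 ± 3.76 (SD, n = 4) in the same order. The genotype difference, averaged over both operations, was 0.58 ± 0.09 (SE) in log2(intensity + 16), a 1.49-fold difference on that scale, with an adjusted p of 0.0169 by limma. Adding 16 makes differences smaller than the log2 ratio of the intensities themselves, most of all for dim probe sets such as this one. In whole tissue, more cells that express a gene and more transcript per cell cannot be told apart.

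That was 1 of 19 member probe sets past the threshold of an adjusted p of 0.05, beside 12 of 22626 probe sets in all (0.053%), or 0.0177% for calls in the higher direction. At an unadjusted p under 0.05 there were 2 of 19 (10.5%), the other being Traf6, against 3.36% of all probe sets. The median genotype difference was 0.0076 over the 19 and -0.0031 over all, so the other members gave no common shift. The Tlr4 call in the medulla was near the threshold: it was lost when any of 5 of the 16 arrays was left out (KO CCI medulla 2, control CCI medulla 1 and control sham medulla 2, 3 or 4, with adjusted p from 0.0517 to 0.0587). It was also lost with a trended robust variance (adjusted p = 0.0538 by limma) and kept without the outlying array KO sham medulla 3 (0.59, adjusted p = 0.0364).

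**Figure D1:**
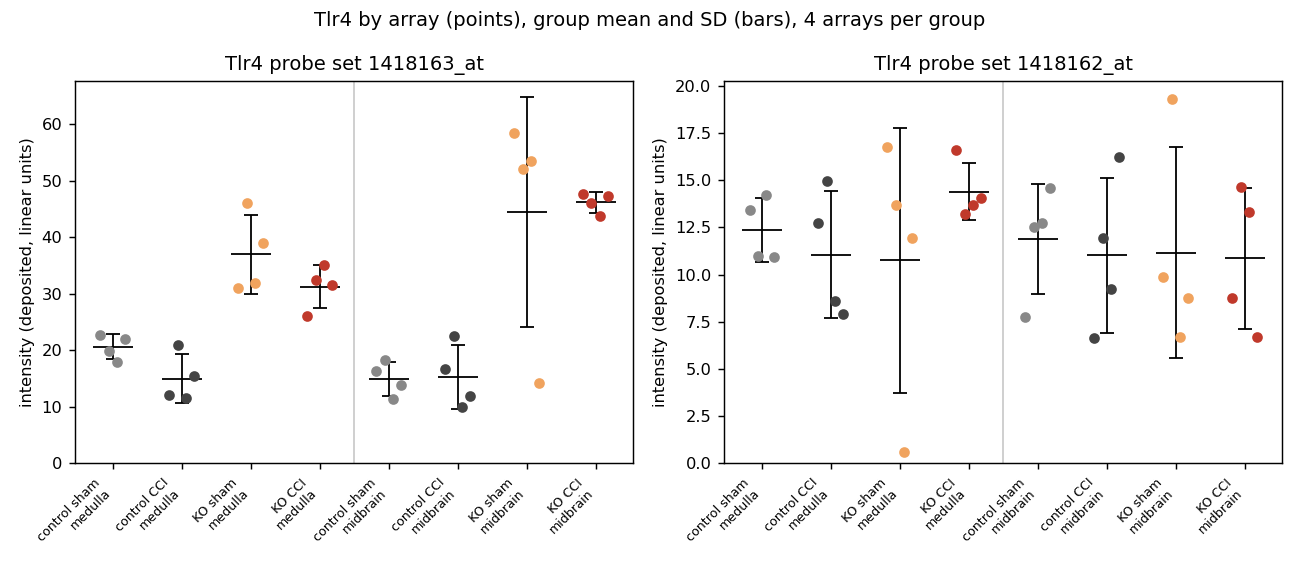
Intensity of the Tlr4 probe sets 1418163_at (left) and 1418162_at (right) on each of the 32 arrays, in linear units, by group. Points are arrays and bars give the group mean and SD. On the left all KO arrays but 1 midbrain array at 14.3 units lie above all control arrays of their region, whereas on the right the groups overlap throughout.

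In the midbrain the same Tlr4 probe set was higher in KO mice on 7 of 8 arrays, but did not pass the threshold. Control sham midbrain arrays read 16.3, 18.3, 11.4 and 13.9 units, and control CCI midbrain arrays 16.8, 22.6, 9.91 and 11.98. KO sham midbrain arrays read 58.4, 52.1, 53.5 and 14.3, and KO CCI midbrain arrays 47.7, 46.1, 43.7 and 47.4. The exception was KO sham midbrain 4 at 14.3, which lay inside the control range, while the other 7 KO arrays lay between 43.7 and 58.4 and above every control array. The difference was 0.91 ± 0.15 (SE), a 1.88-fold difference, with an adjusted p of 0.0637 by limma and an unadjusted p of 2.25e-05. Without KO sham midbrain 4 it was 1.05 with an adjusted p of 8.07e-05, and without both outlying midbrain arrays 1.04 with an adjusted p of 3.42e-04. It also passed with the code number of the arrays as a block (adjusted p = 0.0431 with 3 levels and 0.0153 with 2, by limma). In all it passed in 7 of 12 settings other than leaving out a single array, and in 1 of 16 fits that left out a single array.

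None of the 19 member probe sets passed in the midbrain (0 of 19), beside 7 of 22626 in all (0.0309%). At an unadjusted p under 0.05 there were 6 of 19 (31.6%), against 7.49% of all probe sets. They were Tlr4 1418163_at, Cd14 and Irf3 1426111_x_at, with higher values in KO mice, and Ly96, Tlr3 1422781_at and Traf6 1421377_at, with lower values. The median difference was -0.034 over the 19 and -0.0076 over all, and 13 of the 19 differences were negative.

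The array with the low Tlr4 value carried the KO signal at Cckbr. On KO sham midbrain 4 the Cckbr probe set read 9.17 units, within the -1.49 to 12.9 of the other KO midbrain arrays and far below the 122 to 177 of the control ones. Dctn5, a dynactin subunit, at 340 units, Iqgap1, a scaffold of the cell cortex, at 225 units and both Thrsp probe sets at 313 and 142 units also lay within the range of the other KO midbrain arrays and outside that of the controls. Fzd4 at 103 units, Mcm7 at 65.5 units and Cavin3 at 163 units lay within the control range and outside that of the other KO arrays, as Tlr4 did. These genes were looked at after their values were known, as those whose pattern over arrays was most like that of Tlr4. The array also had the highest summed intensity of choroid plexus markers among the midbrain arrays, 5377 units against 332 to 2396 on the other 15. The same held for endothelial markers (2869 against 2026 to 2484) and for medulla markers (272 against 137 to 247), whereas its microglia and macrophage sum of 5040 lay within the 4302 to 5379 of the others. The part of these in its Tlr4 value was not tested.

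With the arrays joined into animals by array number, the mean of the 2 arrays of an animal is a single measurement. Over 8 KO and 8 control animals, Tlr4 1418163_at was higher in KO mice by 0.74 ± 0.09 (SE), a 1.67-fold difference, with an adjusted p of 0.00213 by limma. The mean log2 value of an animal ran from 4.73 to 5.27 in control mice and from 5.32 to 6.06 in KO mice, so the genotypes did not overlap, also with the animal of KO sham midbrain 4 included as the lowest KO value. Over the array, 0.0265% of probe sets had every KO animal above every control animal in this way. It was the only one of the 19 past the threshold, beside 20 of 22626 in all (0.0884%, and 0.0221% in the higher direction). At an unadjusted p under 0.05 there were 2 of 19 (10.5%), Tlr4 and Cd14, against 4.3% of all probe sets. The adjusted p for Tlr4 lay between 1.15e-04 and 0.00928 over 26 other settings, with each animal left out in turn among them, and was 8.98e-04 with the arrays joined by title number instead.

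**Figure D2:**
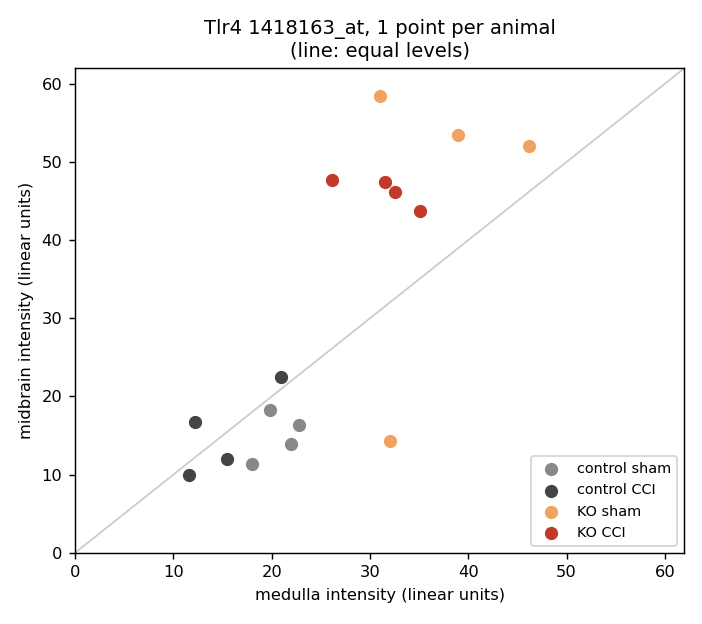
Tlr4 1418163_at in the 16 animals, with the medulla intensity on the horizontal axis and the midbrain intensity on the vertical axis, both in linear units, coloured by group. The grey line marks equal values. Control animals lie at or below 22.8 units on both axes, 7 KO animals lie above the line at 43.7 to 58.4 units in midbrain, and 1 KO animal lies below it at 14.3.

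Within animals, Tlr4 was higher in midbrain than in medulla in 7 of 8 KO animals and lower in 6 of 8 control animals. A difference of the genotype effect between the regions was not shown, with an interaction of 0.33 ± 0.18 (SE; 95% interval -0.03 to 0.70) and an adjusted p of 0.9997 by limma. That fit held no term for the animal, so its SE is not that of the differences within animals. None of the 19 passed in this comparison and 0 of 22626 did in all (0%). The same held in 42 other settings, some of them with the animal as a block. An unadjusted p under 0.05 was found for 4 of 19 (21.1%: Cd14, Irf3 1426111_x_at and the Traf6 probe sets 1421377_at and 1435350_at), against 3.8% overall.

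Taken separately by operation, the Tlr4 difference had the same sign in all 4 comparisons and passed in none. It was 0.52 ± 0.12 in sham and 0.63 ± 0.12 in CCI mice in the medulla (adjusted p = 0.694 and 0.367), and 0.90 ± 0.21 and 0.93 ± 0.21 in the midbrain (adjusted p = 0.371 and 0.669, all SE and all by limma). With 4 arrays a group, few probe sets passed at all here: 0.0133% in sham and 0.00442% in CCI mice in medulla, and 0.0133% and 0.00884% in midbrain, against 0 of 19 members each time. By unadjusted p under 0.05, members numbered 2 of 19 (10.5%) in sham medulla, 1 of 19 (5.26%) in CCI medulla, 4 of 19 (21.1%) in sham midbrain and 3 of 19 (15.8%) in CCI midbrain. The shares over all probe sets were 3.81%, 2.44%, 8.47% and 4.96%. Without KO sham midbrain 4, the Tlr4 difference passed in sham midbrain (1.18, adjusted p = 0.00221 by limma). It then also passed in CCI midbrain (0.93, adjusted p = 0.0146 by limma), a comparison that does not hold the array but shares its estimate of spread with the sham groups.

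The array descriptions carry a code number, of unstated meaning, with 3 values. The lower pair of values covers exactly replicates 1 and 2 (the lowest only the control sham arrays of replicate 1) and the highest exactly replicates 3 and 4, so code and replicate numbers cannot be told apart. The lower pair, joined, and the highest each hold both genotypes. For fits within a code, the middle value was used alone, so the control sham arrays of replicate 1 were left out. In medulla the Tlr4 genotype difference was 0.54 among arrays of the middle value and 0.67 among those of the highest (adjusted p = 0.886 by limma for the highest). In midbrain these differences were 0.94 and 0.89 (adjusted p = 0.880 by limma for the highest). The sizes were near those over all arrays, in fits with fewer arrays. With the code as a block of 2 levels the adjusted p was 0.0293 in medulla and 0.0153 in midbrain by limma, both past the threshold.

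The other Tlr4 probe set, 1418162_at, was dim and did not separate the genotypes. It averaged 11.7 units over the 32 arrays, with a range of 0.628 to 19.3. The KO minus control difference was 0.08 ± 0.09 in medulla, -0.05 ± 0.11 in midbrain and 0.01 ± 0.07 over animals (SE, adjusted p = 0.99999, 0.937 and 0.999 by limma). Across the 32 arrays the pair had a Pearson r of 0.0059, or 0.069 with group means removed. The higher Tlr4 value in KO mice therefore rests on 1 of 2 probe sets for the gene, and which transcript stretch each probe set reads was not analysed here.

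The genes whose pattern over arrays was most like that of Tlr4 1418163_at were sought among 17433 probe sets averaging at least 20 units, by Pearson r over the 32 arrays with the region mean removed. The highest r belonged to Thrsp, a regulator of lipid synthesis, by both its probe sets (0.747 and 0.726), then Fzd4, a Wnt receptor (0.717), Mcm7, a replication helicase subunit (0.711), and Iqgap1 (0.665). The lowest belonged to Cckbr (-0.840), Cavin3, a caveolar protein (-0.793), and Dctn5 (-0.779). Their KO minus control differences in medulla were -2.66, -0.28 and -1.24 in that order. Those of Thrsp (0.33 and 0.24), Fzd4 (0.50), Mcm7 (0.30) and Iqgap1 (0.94) were positive. By limma only Cckbr, Dctn5 and Iqgap1 passed in medulla (adjusted p = 6.49e-09, 0.00215 and 0.00213). Since only the region mean was removed, these r values include the genotype difference. No other member was among these genes. For 1418162_at the highest r was 0.688, with Hus1, and the lowest -0.712, with Lnx1.

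Cd14 encodes the co-receptor that hands lipopolysaccharide on to the Tlr4 complex and is expressed on microglia and macrophages. In midbrain its arrays read 72.9, 28.9, 48.1 and 26.2 units in control sham mice and 66.9, 35.8, 53.5 and 38.5 in control CCI mice. In KO mice they read 88.2, 87.5, 105.8 and 77.2 after the sham operation and 63.2, 85.7, 69.9 and 76.3 after CCI. Of the 8 KO arrays 6 lay above the highest control array and 6 of 8 control arrays lay below the lowest KO array, so the genotypes overlapped through 2 arrays of each.

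The Cd14 difference in midbrain was 0.66 ± 0.15 (SE; 95% interval 0.34 to 0.98), a 1.58-fold difference, and did not pass (unadjusted p = 5.81e-04, adjusted p = 0.304 by limma). By operation it was 0.90 ± 0.21 in sham and 0.42 ± 0.21 in CCI mice. Among all settings tried it passed only without control sham midbrain 1, the control array with the highest value (0.77, adjusted p = 0.0477 by limma). Within the middle array code value, which leaves out control sham midbrain 1, it was 0.83. Within the highest value it was 0.75 and did not pass. Perivascular macrophage markers, 7 of 7 measured, had a summed intensity of 263 to 319 in control sham, 232 to 264 in control CCI, 269 to 387 in KO sham and 276 to 337 in KO CCI midbrain. Of these 7, 6 had higher values in KO midbrain and 1 in KO medulla, and none passed. Of 21 microglia and macrophage markers 6 had higher values in KO midbrain (median difference -0.059), and none passed. The part of either list in the Cd14 values was not tested.

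In medulla Cd14 did not separate the genotypes, with group means of 72.8 ± 8.76 in control sham, 70.6 ± 33.4 in control CCI, 75.8 ± 11.1 in KO sham mice and 65.8 ± 27.96 in KO CCI mice (SD, n = 4). The arrays of both CCI groups spanned 25.1 to 103 units. The genotype difference there was 0.01 ± 0.19 (SE; 95% interval -0.40 to 0.42). The interaction of genotype with region was 0.65 ± 0.25 (unadjusted p = 0.0160, adjusted p = 0.9997 by limma), so a difference between the regions was not shown.

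**Figure D3:**
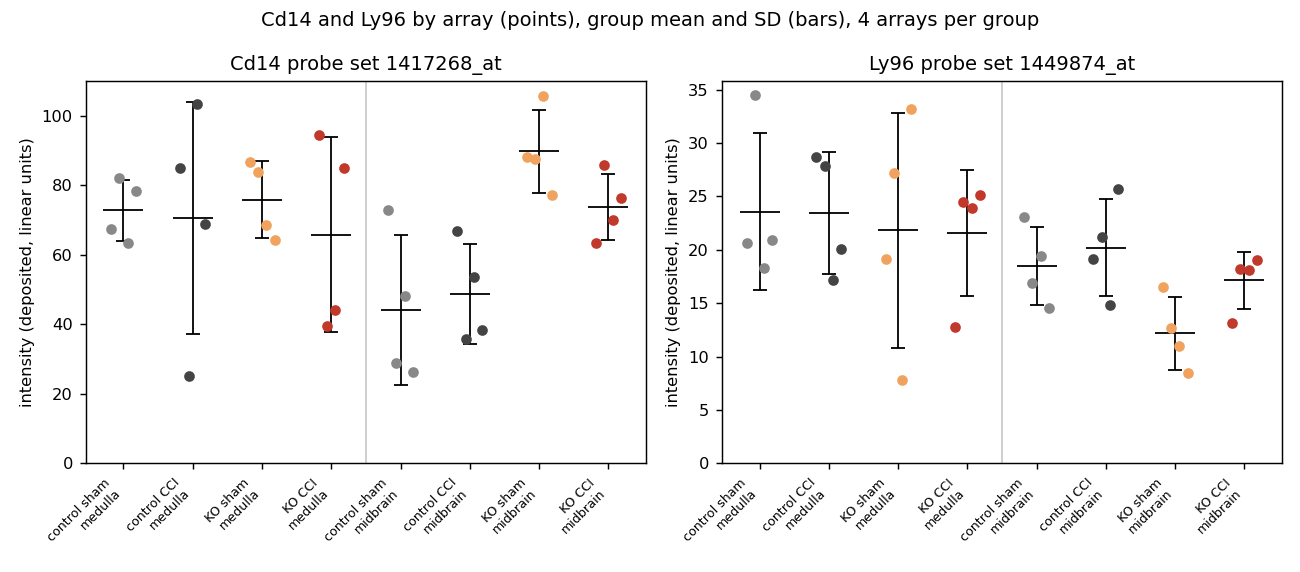
Intensity of Cd14 (1417268_at) and Ly96 (1449874_at) on each array, in linear units, by group, with the group mean and SD as bars. KO midbrain arrays lie at 63.2 units or more for Cd14, where 6 of 8 control arrays lie lower, and the KO midbrain arrays of Ly96 lie at 19.1 units or less.

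Ly96 encodes MD-2, the partner without which Tlr4 does not bind lipopolysaccharide. In medulla it read 20.6, 34.5, 18.3 and 20.9 units in control sham, 28.7, 27.8, 17.2 and 20.1 in control CCI, 19.1, 27.2, 7.77 and 33.2 in KO sham mice and 12.8, 24.5, 23.9 and 25.2 in KO CCI mice. In midbrain it read 23.1, 16.9, 19.4 and 14.6 in control sham, 19.1, 21.2, 14.9 and 25.7 in control CCI, 16.6, 12.7, 11.0 and 8.42 in KO sham mice and 13.2, 18.2, 18.1 and 19.1 in KO CCI mice. Within each region all groups overlapped, and the lowest values were those of KO sham medulla 3 and KO sham midbrain 4, which come from 1 animal by array number. Ly96 was dim throughout.

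The genotype difference of Ly96 was -0.06 ± 0.13 in medulla (95% interval -0.34 to 0.22) and -0.25 ± 0.08 in midbrain (adjusted p = 0.528 by limma). Its midbrain sign was opposite to that of Tlr4 and Cd14, the genes whose products it works with. Averaged over all groups, Ly96 was lower in midbrain than in medulla by 0.22 ± 0.08 (SE), 1.16-fold, with an adjusted p of 0.0490 by limma. Its deposited intensity was lower in midbrain in 11 of 16 animals, 6 of 8 KO and 5 of 8 control animals. The call was lost in 22 of 32 fits that left out a single array and in 5 of 8 other settings (adjusted p 0.0087 to 0.0865 in all).

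Tlr3, the endosomal receptor for double-stranded RNA, was lower in midbrain than in medulla by both its probe sets, whatever the genotype or operation. By 1422782_s_at, medulla arrays read 229, 214, 226 and 237 units in control sham, 257, 241, 229 and 239 in control CCI, 224, 208, 181 and 221 in KO sham mice and 229, 252, 249 and 222 in KO CCI mice. Midbrain arrays read 124, 128, 123 and 120 in control sham, 140, 153, 146 and 133 in control CCI, 122, 173, 114 and 133 in KO sham mice and 133, 145, 111 and 135 in KO CCI mice. Every midbrain array lay below every medulla array, which 0.747% of all probe sets did. The nearest midbrain value, 173, came from KO sham midbrain 2, an array that stood apart. The midbrain minus medulla difference was -0.72 ± 0.05 (SE), 1.64-fold lower, with an adjusted p of 2.18e-12 by limma.

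The other Tlr3 probe set, 1422781_at, ran from 40.1 to 83.3 units in medulla (median 63.6) and from 20.1 to 47.2 in midbrain (median 38.8). Its ranges overlapped only by KO medulla arrays at 40.1 and 40.4. Its difference was -0.59 ± 0.08 (SE), 1.51-fold lower, with an adjusted p of 3.36e-06 by limma. Midbrain was lower than medulla in 16 of 16 animals by either probe set, and both calls held in 41 of 41 other settings. The genotype differences of Tlr3 were -0.07 ± 0.05 and 0.0014 ± 0.11 in medulla and -0.02 ± 0.08 and -0.28 ± 0.12 in midbrain (SE, 1422782_s_at first), the last with an adjusted p of 0.633 by limma. Across arrays the Tlr3 probe sets had a Pearson r of 0.846, and 0.616 with group means removed.

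With Ly96, these made 3 of 19 member probe sets (15.8%) lower in midbrain and 0 higher, beside 21.5% of all probe sets past the threshold in either direction and 11.0% lower. At an unadjusted p under 0.05 the members were the same 3, against 31.6% of all probe sets. The members' share of calls in either direction was thus below that over the array. Markers of several cell types differed between the regions as well. Past the threshold, 4 of 5 choroid plexus markers were lower in midbrain and 1 higher (median -1.83), 5 of 9 astrocyte markers lower and 1 higher (median -0.13), 4 of 8 neuron markers lower and 1 higher (median -0.08), and 2 of 9 endothelial markers lower and 0 higher (median -0.06). Of 21 microglia and macrophage markers 0 passed in either direction, and 12 had positive differences (median 0.0065). Their part in the Tlr3 difference was not tested.

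**Figure D4:**
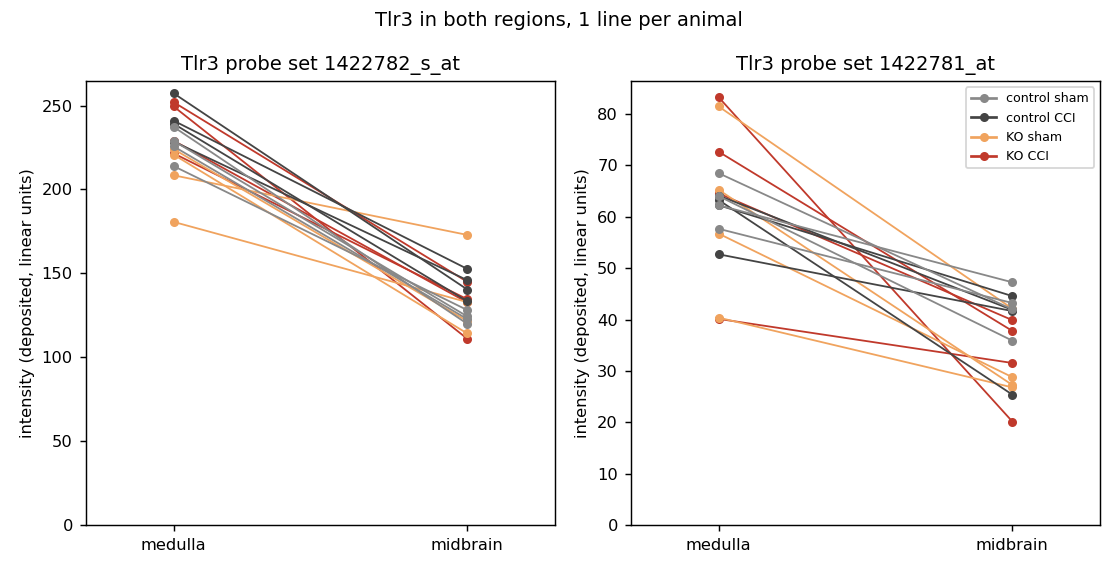
Intensity of the Tlr3 probe sets 1422782_s_at and 1422781_at in medulla and midbrain, in linear units, with a line joining the arrays of each of the 16 animals. All lines fall from medulla to midbrain, and by 1422782_s_at the ranges, 181 to 257 and 111 to 173 units, do not overlap.

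The stretch of 250 bases before the annotated start of Tlr3 is shown because this gene carried the clearest difference among the members, and because interferon is known to raise Tlr3. It is taken from RefSeq (GRCm38.p6, chr8:45410381-45410630, minus strand, written 5′ to 3′ along the gene). Capitals mark a match, on either strand, to the interferon-response-like letters AAANNGAAA.
Tlr3: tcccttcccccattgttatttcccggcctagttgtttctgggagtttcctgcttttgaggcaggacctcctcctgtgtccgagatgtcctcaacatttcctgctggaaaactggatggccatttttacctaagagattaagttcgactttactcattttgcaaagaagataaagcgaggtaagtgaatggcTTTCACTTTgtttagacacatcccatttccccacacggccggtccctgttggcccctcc
These letters were found in 9.37% of 32851 promoters of the same length, and among the 6 members with a promoter in the table (Irak1, Irf3, Myd88, Tlr2, Tlr3 and Traf6) also in Myd88 and Tlr2. The letters GAGGAA, the core bound by PU.1, were searched in the same way and are in 23.3% of all promoters, those of the TATA box (TATAAA) are in 12.4% and those of the GC box (GGGCGG) are in 32.7%. This stretch of Tlr3 holds none of these. A match is a description of the letters and shows no binding.

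Tlr2, the receptor for bacterial lipoproteins, showed no change that passed. Its group means lay between 22.3 ± 6.33 (KO CCI midbrain) and 31.6 ± 6.16 units (KO sham midbrain; SD, n = 4), and all 32 arrays lay between 16.7 and 40.2. KO CCI midbrain arrays read 16.7, 17.0, 26.4 and 29.0 and KO sham midbrain arrays 26.4, 40.2, 31.9 and 28.01, so these groups overlapped slightly. The CCI minus sham difference in KO midbrain was -0.35 ± 0.14 (SE; adjusted p = 0.601 by limma). The genotype difference was -0.05 ± 0.08 in medulla and -0.05 ± 0.10 in midbrain.

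Myd88, the adaptor shared by Tlr4 and Tlr2, varied widely within groups and not with them. Its 8 group means lay between 145 ± 21.7 and 175 ± 52.1 units (SD, n = 4), and the arrays of control sham midbrain alone ran from 76.9 to 238. The genotype difference was -0.05 ± 0.17 in medulla (95% interval -0.41 to 0.30) and 0.07 ± 0.22 in midbrain (-0.40 to 0.53), and midbrain differed from medulla by -0.04 ± 0.14. 

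Irak1, the kinase recruited by MyD88, has 4 probe sets, and none passed in any comparison. Their means over the 32 arrays were 127.9, 152, 161 and 199 units, and the genotype differences in midbrain lay between -0.17 ± 0.12 (1460649_at) and 0.11 ± 0.17 (1448668_a_at). By 1460649_at, control CCI midbrain arrays read 138, 141, 156 and 152 and KO CCI midbrain arrays 105, 101, 99.7 and 106. These groups did not overlap, and 2.33% of all probe sets had every KO below every control array in CCI midbrain. The sham arrays showed no such gap, at 141, 115, 112 and 99.6 in control and 85.8, 123, 127 and 203 in KO midbrain. The interaction of genotype and CCI was -0.59 ± 0.23 (SE; unadjusted p = 0.0211, adjusted p = 0.822 by limma). The other probe sets of the gene gave -0.20, -0.23 and -0.15, and only 1438120_x_at and 1438857_x_at correlated clearly over arrays (r = 0.744). By 1448668_a_at, arrays of replicates 1 and 2 read 107.5 to 171.49 units and those of replicates 3 and 4 read 171.85 to 217.7. This split ran through every group of both regions. The spread of that probe set therefore went with the array code or replicate number, which cannot be told apart.

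Traf6, the ubiquitin ligase that passes the signal of IRAK1 to the kinases upstream of NF-kappaB, has 3 dim probe sets that differed from each other. In medulla 1435350_at read 36.99, 28.5, 38.4 and 26.6 units in control sham, 40.3, 45.02, 37.3 and 40.9 in control CCI, 35.04, 47.2, 52.2 and 45.7 in KO sham mice and 46.3, 43.3, 55.2 and 41.6 in KO CCI mice. On 5 of 8 KO arrays the value lay above every control array, and the difference was 0.24 ± 0.10 (SE; unadjusted p = 0.0246, adjusted p = 0.99999 by limma). In midbrain the difference of that probe set was -0.03 ± 0.09, and that of 1421377_at was -0.25 ± 0.10 (adjusted p = 0.594 by limma). The medulla differences of 1421376_at and 1421377_at were 0.19 ± 0.19 and 0.15 ± 0.13. Pearson r between the probe sets over arrays ran from -0.177 to 0.269, so they do not give 1 level for the gene.

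Irf3, the transcription factor of the interferon branch, has 4 probe sets with means of 18.4, 30.0, 66.5 and 133 units. None passed in any comparison. By the brightest, 1426111_x_at, control midbrain arrays ran from 109 to 144 units, KO sham midbrain arrays read 135, 177, 166 and 169 and KO CCI midbrain arrays 131, 121, 132 and 157. The midbrain genotype difference of 0.19 ± 0.07 (SE; unadjusted p = 0.0189, adjusted p = 0.585 by limma) was larger in the sham mice (0.28 ± 0.10, against 0.10 ± 0.10 in CCI mice). The interaction with CCI was -0.19 ± 0.14 (adjusted p = 0.846 by limma), so a difference between the operations was not shown. The other 3 probe sets gave -0.06 ± 0.11, -0.11 ± 0.14 and -0.05 ± 0.16, all of the opposite sign and smaller than their SE.

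**Figure D5:**
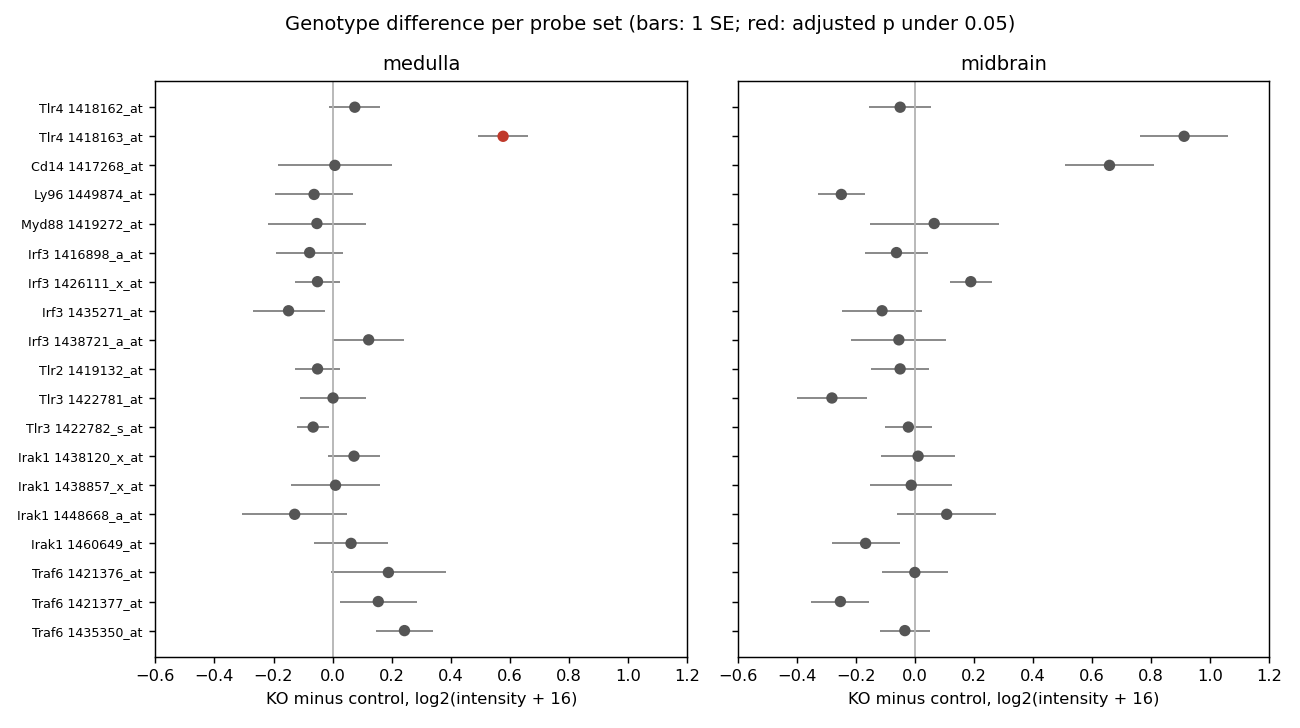
KO minus control difference in log2(intensity + 16) for each of the 19 member probe sets in medulla and in midbrain, averaged over operation. Points are differences, bars are 1 SE, and red marks an adjusted p under 0.05. Tlr4 1418163_at lies at 0.58 in medulla, in red, and at 0.91 in midbrain, and Cd14 lies at 0.01 and 0.66.

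For nerve injury no member passed in either genotype or region. The CCI minus sham differences of the 19 probe sets ran from -0.23 to 0.25 in control medulla, -0.36 to 0.24 in KO medulla, -0.16 to 0.39 in control midbrain and -0.35 to 0.27 in KO midbrain. For Tlr4 1418163_at they were -0.23 ± 0.12, -0.12 ± 0.12, 0.05 ± 0.21 and 0.08 ± 0.21 (SE) in that order. By limma 0 of 19 passed in each, and 0 of 22626 did over the array (0%). By unadjusted p under 0.05, members numbered 0, 0, 0 and 2 of 19 (10.5%: Tlr2 and Irf3 1426111_x_at), against 2.8%, 4.24%, 3% and 8.23% of all probe sets. The interactions of genotype with CCI gave 0 of 19 as well (0% of all in either region), with 0 members in medulla and 1 in midbrain (5.26%, Irak1 1460649_at) at an unadjusted p under 0.05, against 2.67% and 5.48%.

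For Cd14, the co-receptor, CCI differences were -0.14 ± 0.27 and -0.21 ± 0.27 in control and KO medulla and 0.21 ± 0.21 and -0.27 ± 0.21 in control and KO midbrain. For Ly96 they were 0.02 ± 0.19, 0.04 ± 0.19, 0.12 ± 0.11 and 0.20 ± 0.11. For Tlr3 1422782_s_at they were 0.06 ± 0.08, 0.14 ± 0.08, 0.18 ± 0.11 and -0.06 ± 0.11 (SE). The 95% interval of the Cd14 value in KO midbrain ran from -0.72 to 0.19, so with 4 arrays a group these comparisons leave wide limits.

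The rest of the pathway was taken from lists of 96 genes, of which 82 were measured by 133 probe sets: other Toll-like receptors and accessory proteins, adaptors and kinases, transcription factors, target genes and endogenous Tlr4 ligands. In the comparisons of genotype, CCI and their interactions 0 of 133 passed by limma, where the share of all probe sets lay between 0% and 0.0884%. For genotype over animals 5.26% had an unadjusted p under 0.05, against 4.3% of all probe sets, and for genotype in medulla 4.51% against 3.36%. In midbrain these shares were 9.77% against 7.49% for genotype, 8.27% against 4.96% for genotype in CCI mice, 12.8% against 8.23% for CCI in KO mice and 9.02% against 5.48% for the interaction of genotype and CCI. For genotype in sham midbrain the share was lower (7.52% against 8.47%), and for CCI in control midbrain it was 3.01% against 3%. In medulla it was lower for genotype in CCI mice (1.5% against 2.44%) and CCI in KO mice (3.01% against 4.24%). The same held for the interaction of genotype and CCI in medulla (2.26% against 2.67%). In medulla the share was higher for genotype in sham mice (6.02% against 3.81%) and CCI in control mice (3.76% against 2.8%). The median differences for genotype over animals were 0.0046 and -0.0051. Bright genes of these lists differed by little: Nfkbia, an NF-kappaB inhibitor that is also its target, differed by -0.09 ± 0.09 in medulla and 0.04 ± 0.08 in midbrain, and Ly86, a homologue of Ly96, by -0.05 ± 0.08 and 0.06 ± 0.08. Among target genes, Ccl3, a chemokine, differed by 0.09 ± 0.15 and -0.02 ± 0.15.

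Between the regions 19 of the 133 probe sets passed (14.3%, against 21.5% over the array), 8 higher and 11 lower in midbrain. Higher in midbrain were the adhesion molecule Vcam1 by 3 probe sets (0.20 to 0.32), the interferon-induced Ifit3 (0.25), the cyclooxygenase Ptgs2 (0.24), the kinase Mapk14 (0.19), the receptor chaperone Cnpy3 (0.19) and Tnc, an extracellular matrix ligand of Tlr4 (0.42). Lower were Lbp, the serum protein that loads lipopolysaccharide onto CD14 (-0.53), Tlr8 (-0.28), the MyD88 partner Tirap (-0.29), Tbk1, the kinase that activates IRF3 (-0.18 and -0.11), Nfkbib (-0.22), Jun (-0.22 and -0.15), Map3k7 (-0.17), Map2k6 (-0.16) and Hspa4 (-0.16).

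Microglia and macrophages are the cells in which the Tlr4 complex is best known, and none of their markers passed for genotype. Of 21 markers measured of 22 listed, 0 passed in medulla and 0 in midbrain (0 and 1 at an unadjusted p under 0.05), with medians of -0.023 and -0.059. Their summed intensity on an array lay between 4262 and 5455 units over all 8 groups. All 21 had a mean of at least 20 units in every group. Among lists of other cells (perivascular macrophages, granulocytes and monocytes, red blood cells, lymphocytes, endothelial cells, astrocytes, choroid plexus and neurons) 0 markers passed for genotype in either region. In midbrain 5 of 9 endothelial, 2 of 7 perivascular macrophage and 2 of 9 astrocyte markers had an unadjusted p under 0.05. Neurons gave 1 of 8 there, and granulocytes and monocytes, red blood cells, lymphocytes and choroid plexus 0. The share over all probe sets was 7.49%. The endothelial median was -0.023, with 4 of 9 differences positive. The part of any of these cells in the Tlr4 difference was not tested beyond these values.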

How the data were processed

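Expression was measured on 32 arrays of 8 groups of 4, from 4 ug of total RNA each, per the labels. The deposited values are intensities in linear units. Their array medians lie close together and some values lie below 0, and nothing at hand names the method by which the authors scaled or background-corrected them. Of 22690 probe sets, 64 controls were left out. Values below 0 were set to 0, 16 was added, log2 was taken and arrays were quantile normalized. Differences were tested with limma 3.58.1 (R 4.3.3) on group means, per region on 16 arrays, between regions on 32 arrays and over 16 animal means, with Benjamini-Hochberg adjustment over 22626 probe sets and a threshold of 0.05. Printed levels, ranges and counts of overlapping arrays are deposited intensities. Gene names come from the platform annotation (20380 probe sets with 1 symbol, 691 with several, 1555 with none). Regions were joined into animals by consecutive array numbers, where titles disagree for KO sham 3 and 4. Residuals of the same animal correlated by 0.171 on average over 16 pairs (10 of them over 0.1), and regions of 1 animal are not independent. The main fit between regions held no term for the animal. The members and lists were chosen with earlier results of these data known. Genes described were the members, those most like Tlr4 in pattern, and list members past the threshold or brightest. Arrays limit the precision by their number. Probe sets ending in _s_at or _x_at may read several transcripts, and those ending in _a_at alternative transcripts of a gene.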

Additional observations from a re-analysis of the deposited data

Results flagged for a closer look

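In groups of 4 arrays, the highest or lowest array lay far from the other 3 in 10 of 152 groups of a probe set (6.58%). Far means that its gap to the nearest array, divided by the range of the group, was above Dixon's 95% critical value. Chance alone exceeds that value in about 1 in 20 groups. Gap and range were taken on the normalized log2 values, whereas the values printed here and in the next paragraph are deposited intensities. The same ratio on the printed intensities need not reach the critical value. The Tlr4 probe set 1418163_at read 14.32 units on KO sham midbrain 4, against 52.1 to 58.42 on the other 3 arrays. Irf3 1435271_at read 37.01 on the same array, against 18.12 to 20.94. No other array had 2 such values, and KO sham medulla 3 had 0.

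Ly96 read 34.46 units on control sham medulla 2, against 18.32 to 20.92, and 12.8 on KO CCI medulla 1, against 23.87 to 25.15. Myd88 read 121.4 on KO CCI midbrain 1, against 176.7 to 189.3. Irf3 1438721_a_at read 8.259 on control CCI medulla 3, against 18.02 to 21.51. Tlr3 1422781_at read 25.37 on control CCI midbrain 1, against 41.65 to 44.56. Irak1 1438857_x_at read 194.9 on control sham midbrain 2, against 133.7 to 136.2. Traf6 1421376_at read 43.02 on control CCI medulla 4, against 23.12 to 25.83, and 15.81 on KO sham midbrain 2, against 19.65 to 24.18.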

How the results depend on the processing

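The count of members past the threshold for genotype in medulla went from 1 to 0 without the dimmest probe sets, among them Tlr4 itself. The same held with a trended robust variance (Tlr4 adjusted p = 0.0538 by limma) and within the highest array code (0.886). It also held when animals with little Ttr, a choroid plexus marker, in medulla were left out (0.0631). The count ranged from 0 to 1 when single arrays were left out. In midbrain it went from 0 to 1, by Tlr4, with a pseudocount of 64 (0.0465), a trended robust variance (0.0250), array weights (0.00465), the array code as a block of 3 or 2 levels (0.0431 and 0.0153), the replicate block (0.0344) and without KO sham midbrain 2 and 4 (3.42e-04), and it ranged from 0 to 1 with single arrays left out (Tlr4 or Cd14). In sham and in CCI midbrain it was 1 without KO sham midbrain 2 and 4 (0.0109 and 0.0127) and ranged from 0 to 1 with single arrays left out. Over animals it was 0 only without the dimmest probe sets. Between regions it was 2 or 3, by Ly96. In 9 of 15 comparisons it was 0 in every setting run. The cause of these changes was not tested where no construction is named.

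Over all probe sets the calls ran from 0 to 16 for genotype in medulla (12 as reported), 0 to 65 in midbrain (7), 0 to 6 and 0 to 7 in sham and CCI medulla (3 and 1), 0 to 11 and 0 to 5 in sham and CCI midbrain (3 and 2) and 13 to 30 over animals (20). Equal replicate numbers in the titles are not stated to pair arrays: their residuals correlated by 0.054 on average over 48 pairs, 16 of them over 0.1, and 18 of 32 arrays correlated best with their own number. With this number as a replicate block Tlr4 had an adjusted p of 0.0388 in medulla. The animal means without the animals of KO sham midbrain 2 and 4, a choice made after seeing the data, gave 0.78 (5.39e-04).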
